A study of Homo sapiens with 12 samples.

Results

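Enhancer RNAs that lie inside protein-coding transcription units were described across 6 kinds of library from K562, a long-established line from a human chronic myelogenous leukaemia with erythroid features. Of the 21874 transcription units that the authors segmented from TT-Seq, 723 were taken, each classed by the authors as enhancer RNA, outside GENCODE, and overlapping by at least 1 base a unit of the mRNA class on the opposite strand, here called the host. They lay in 564 host units, and another 2087 enhancer RNA units outside GENCODE lay outside such hosts. Cells of every RNA group had received 4-thiouridine (4sU), a uridine analogue that marks newly made RNA, at 500 µM for 5 min. Labelled RNA was purified in TT-Seq after shearing by sonication and in 4sU-Seq without shearing. Total RNA-Frag-Seq held sheared RNA and Total RNA-Seq unsheared RNA, neither purified. Chromatin of K562 crosslinked for 7.5 min was precipitated with N-20 (N20 ChIP), an antibody to RNA polymerase II, and (S2P ChIP) with an antibody to the polymerase phosphorylated at serine 2. Each group had 2 libraries, so each value rests on 2 replicates, and 1 cell line was studied.

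Enhancers are stretches of DNA that bind transcription factors and raise transcription of genes at a distance. RNA polymerase II also transcribes many active enhancers, and the enhancer RNAs made there are mostly short, unspliced and quickly degraded. Many enhancers lie in introns, where an enhancer RNA on the host's own strand cannot be told from the host's unspliced transcript, while one on the other strand can be read separately in stranded libraries.

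RefSeq sequence (GRCh38.p14) before a gene start was at hand for the starts of 32 of the 723 enhancer RNAs, and in 29 of these the gene and the enhancer RNA ran in opposite directions from the same stretch. The 5 shown have the highest TT-Seq levels among divergent pairs whose 250 bases hold a searched motif. Each window also holds bases beyond the enhancer RNA start, on the side away from the gene. A marked motif therefore need not lie between the enhancer RNA start and the gene start. Each is the strand of the gene, 5′ to 3′, and ends at the base before the gene start. Capitals mark the motifs, read on either strand.
LYL1: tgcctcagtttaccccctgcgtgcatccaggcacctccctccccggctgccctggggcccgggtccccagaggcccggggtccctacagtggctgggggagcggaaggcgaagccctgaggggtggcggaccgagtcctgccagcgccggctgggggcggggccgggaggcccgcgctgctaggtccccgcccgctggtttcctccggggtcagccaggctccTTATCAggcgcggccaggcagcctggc
TFG: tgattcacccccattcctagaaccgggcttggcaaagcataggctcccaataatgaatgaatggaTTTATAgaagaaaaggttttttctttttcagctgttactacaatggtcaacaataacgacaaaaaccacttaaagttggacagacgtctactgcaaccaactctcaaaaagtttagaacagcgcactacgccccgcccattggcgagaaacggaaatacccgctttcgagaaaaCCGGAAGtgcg
DNAJB2: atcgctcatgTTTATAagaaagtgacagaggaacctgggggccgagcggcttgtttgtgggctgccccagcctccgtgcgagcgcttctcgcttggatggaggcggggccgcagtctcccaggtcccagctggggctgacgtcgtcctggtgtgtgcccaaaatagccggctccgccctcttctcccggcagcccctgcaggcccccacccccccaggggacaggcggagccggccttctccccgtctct
SLC6A19: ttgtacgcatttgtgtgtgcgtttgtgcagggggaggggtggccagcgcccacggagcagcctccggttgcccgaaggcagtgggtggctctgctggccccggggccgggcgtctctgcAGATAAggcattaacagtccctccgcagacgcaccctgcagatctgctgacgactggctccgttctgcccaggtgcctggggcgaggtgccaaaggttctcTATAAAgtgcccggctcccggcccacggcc
PACSIN2: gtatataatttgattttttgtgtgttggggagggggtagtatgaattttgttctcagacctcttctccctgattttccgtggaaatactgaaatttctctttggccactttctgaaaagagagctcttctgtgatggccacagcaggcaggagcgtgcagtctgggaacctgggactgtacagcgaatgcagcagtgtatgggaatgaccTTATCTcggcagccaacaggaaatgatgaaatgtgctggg
The LYL1 window is chr19:13102859-13103108 on the minus strand, and the enhancer RNA, opposite the TRMT1 unit, started 143 bases before the start of LYL1, a basic helix-loop-helix factor of blood cells. The TFG window is chr3:100709040-100709289 on the plus strand, and the enhancer RNA started 66 bases before TFG, which acts in export from the endoplasmic reticulum. The DNAJB2 window is chr2:219279116-219279365 on the plus strand, with the enhancer RNA start 98 bases before this co-chaperone gene. The SLC6A19 window is chr5:1201345-1201594 on the plus strand, with the start 29 bases before this amino acid transporter gene. The PACSIN2 window is chr22:42959900-42960149 on the minus strand, with the start 80 bases before this membrane-shaping protein's gene. These sites are starts of annotated genes, although the authors' class for the opposite transcript is enhancer RNA.

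Over the 32 windows the GATA-type motif AGATAA was present in 4 (12.5%), against 9.21% of 34788 RefSeq windows of the same length. TGATAA was present in 3 (9.38%, against 6.68%), TATAAA in 4 (12.5%, against 10.8%) and CCGGAAG in 2 (6.25%, against 8.50%). CAGATG was present in 2 (6.25%, against 12.2%) and TGACTCA in 1 (3.13%, against 4.21%). With 32 windows each share moves by several percentage points with a single window. Median GC content was 63.4% in the 32 windows and 58.0% in all windows. The sequence at the other starts was not analysed here.

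The enhancer RNA units were short and their hosts long. Their median length was 992 bases (range 137 to 96151), and the median host was 109 kb. Of the 723, 655 lay wholly inside the host, 59 over its start, 8 over its end, and 1 spanned it. The start lay a median 30.4 kb from the host start, within 5 kb of it in 114 and farther in 609. As a position along the host the median was 34.4%, and 476 of 723 started before the host's midpoint. Most hosts (458) held 1 such unit, 72 held 2, 24 held 3, 3 held 4, 6 held 5 and 1 held 7. A coding gene could be named for the hosts of 714, of which 117 lie in units that cover several coding genes. The strand of the named gene was known for 585, and for the others the gene was named by overlap alone. Where no coding gene of the host lay across the enhancer RNA, the gene of the host unit was used. Of the 723, 25 overlap a RefSeq gene on their own strand.

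Binned counts summed to 25.9 to 71.3 M per RNA library and 12.6 to 73.7 M per ChIP library. Of 16 erythroid and K562 marker genes, 11 to 14 per RNA group stood at 1 or more counts per kb per 1 M, with summed levels of 100.0 to 212.5. Of 15 markers of other cells, 1 to 3 did, with summed levels of 2.75 to 7.48 and KRT5 at 0 in each. The other-cell markers past 1 were EPCAM (1.17 to 1.94), itself a host here, LYZ and CD3D. LYZ stood at 2.19 in Total RNA-Frag-Seq and 2.60 in Total RNA-Seq, and CD3D at 1.46 in Total RNA-Seq.

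The enhancer RNA strand began sharply at the annotated starts. Levels below are counts per kb per 1 M counts in units, with exons and introns together. Densities around starts and ChIP densities are scaled to all binned counts of the library instead. In the bin of 200 bases before the start, the mean own-strand density was 0.00201 and 0.00252 in the 2 TT-Seq libraries (capped at the 98th percentile over units), and in the bin after the start bin it reached 0.585 and 0.587. For sheared total RNA the bin after the start held 0.0944 and 0.101. On the host strand the same bins changed little, from 1.55 and 1.58 to 1.79 and 1.88 in TT-Seq. Since TT-Seq itself was used to set the unit boundaries, that step was fixed in part by the choice of units. It also appeared in 4sU-Seq, from 0.00917 and 0.00999 to 0.371 and 0.474.

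**Figure D1:**
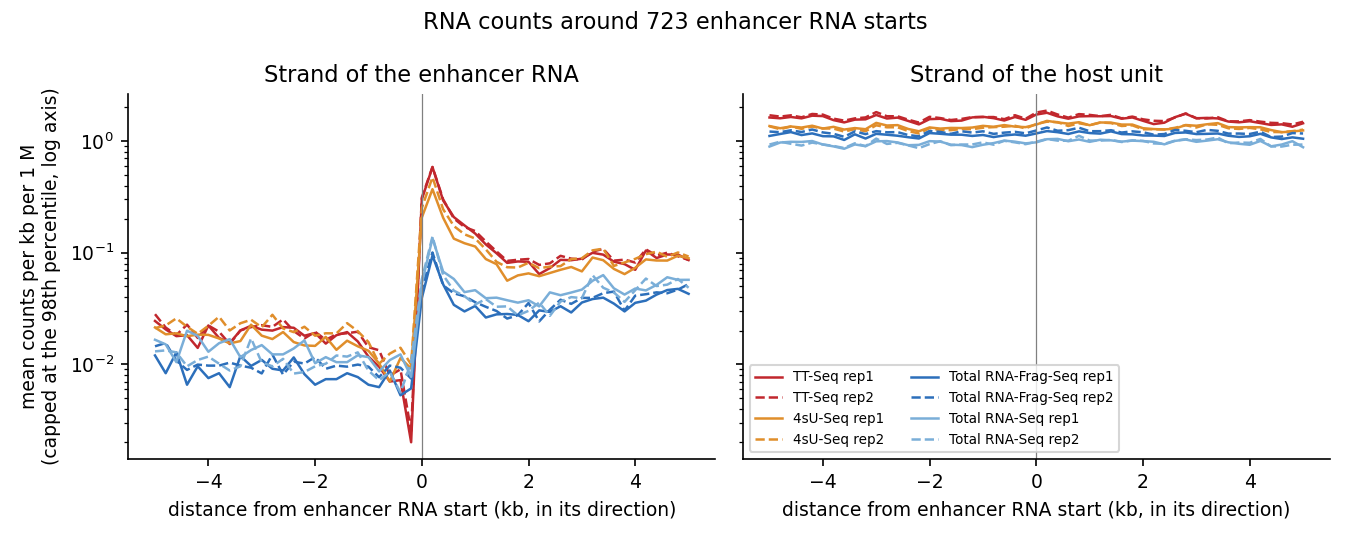
Mean density (counts per kb per 1 M, log axis) by distance from the start of 723 enhancer RNAs, on their own strand (left) and on the host strand (right), with 1 line per RNA library (solid replicate 1, dashed replicate 2). The own-strand lines step up at 0 kb, to 0.585 and 0.587 in TT-Seq, while the host-strand lines stay near 1 to 2.

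Levels were low. In TT-Seq the median enhancer RNA had 21 counts in replicate 1 and 23 in replicate 2, and in 4sU-Seq 11 and 12. The medians of both total RNA groups were 2 and 1. In TT-Seq the 723 together took 0.0831% and 0.0839% of all counts in units, against 0.0373% and 0.0378% in Total RNA-Frag-Seq. No count was found in either library for 4 units in TT-Seq (those too short to hold a bin midpoint, of which no level can be given), 11 in 4sU-Seq, 136 in Total RNA-Frag-Seq and 144 in Total RNA-Seq. For the 132 units of these in Total RNA-Frag-Seq that hold a bin midpoint, a count of 0 allows up to 0.0450 CPM (counts scaled to 1 M counts in units), taking 3 counts over both libraries as the limit. Limits of this kind cover counting error only. The SE values given below come from the edgeR fit, which also takes in the spread between replicates.

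The highest level per length belonged to short units. The highest, chr12:121628980-121629270 on the minus strand, in a host with no gene named, stood at 131 and 115 in TT-Seq, while 4sU-Seq gave 74.2 and 89.1. Total RNA gave 95.9 and 71.3 when sheared and 123 and 113 when unsheared. Both TT-Seq libraries lay above both sheared total libraries (log2 fold change 0.20 ± 0.12, SE; edgeR adjusted p = 0.151), and both 4sU-Seq libraries lay below both unsheared total libraries (-0.68 ± 0.13; edgeR adjusted p = 3.77e-04). Opposite ARPC1A, a subunit of the actin-nucleating Arp2/3 complex, the unit at chr7:99330295-99330607 stood at 50.7 and 50.9 in TT-Seq and at 9.74 and 12.9 in Total RNA-Frag-Seq. Opposite EPCAM, an epithelial adhesion molecule, the unit at chr2:47392181-47392473 had 18.9 and 19.6 against 8.21 and 9.32. The unit opposite LRRC47 (chr1:3793921-3794245) had 16.6 and 18.6 against 6.09 and 8.46. Opposite DTNBP1, which encodes the lysosome-related organelle protein dysbindin, the unit at chr6:15613036-15613309 had 13.8 and 11.2 against 3.18 and 2.16. Opposite PKMYT1, a kinase that holds back entry into mitosis, the unit at chr16:2983926-2984271 had 12.3 and 9.84 against 0.662 and 1.55. In the last 5 both TT-Seq libraries lay above both Total RNA-Frag-Seq libraries. Each of the 6 spans 1 or 2 bins, so its level rests on few positions.

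**Figure D2:**
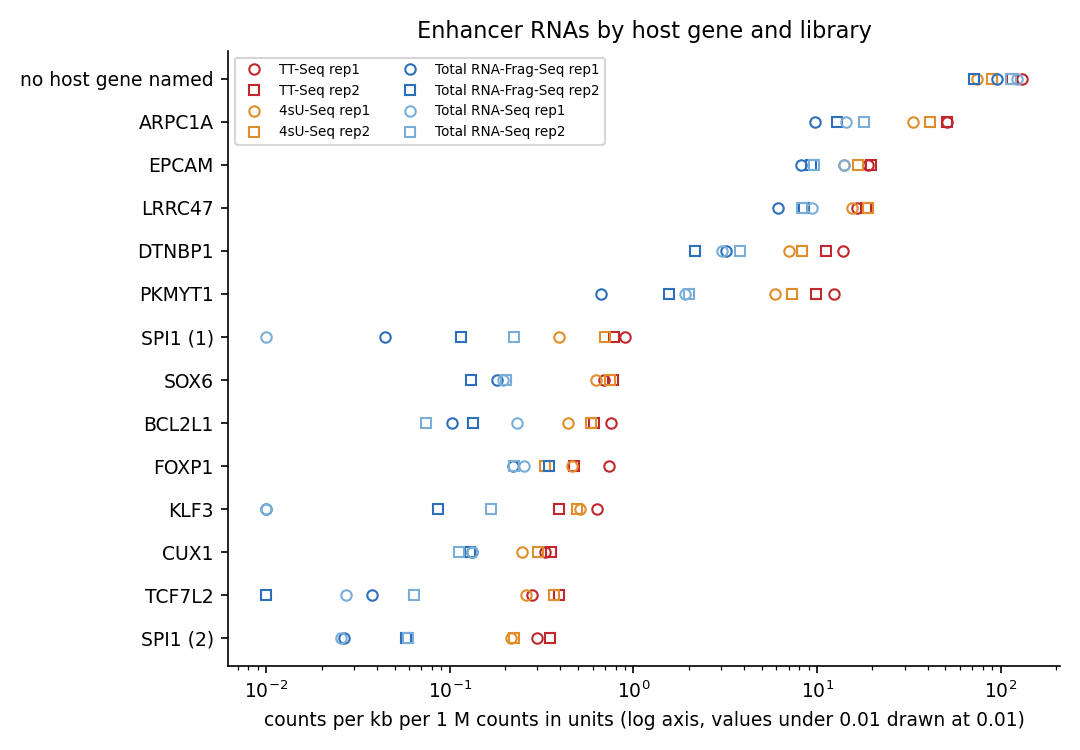
Level of 14 enhancer RNAs in each RNA library (counts per kb per 1 M counts in units, log axis), named by host gene: the 6 with the highest TT-Seq level and 8 in hosts of the haematopoietic list. Values under 0.01 are drawn at 0.01; in the unit opposite PKMYT1 the TT-Seq points (12.3 and 9.84) stand clear of those of Total RNA-Frag-Seq (0.662 and 1.55).

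Purification of labelled RNA from sheared RNA gave higher levels of most enhancer RNAs. Most hosts were not higher on the TMM scale of the fits. Both TT-Seq libraries were above both Total RNA-Frag-Seq libraries, in counts scaled to library size, for 692 of the 723 (95.7%), against 66.7% of all units, and below for 7 (0.968%), against 25.4%. After the filter on low counts 429 of 723 entered the edgeR quasi-likelihood test. Of these, 376 were higher in TT-Seq and 10 lower at a Benjamini-Hochberg adjusted p under 0.05, against 43.2% and 37.8% of the 19318 units tested. Their median log2 fold change was 2.34, a 5.05-fold rise, against 0.09 over all units tested; with the 17 units at 0 in Total RNA-Frag-Seq set to their lower bound it was 2.295. A unit could pass the filter through TT-Seq alone, so these figures describe the units with enough counts. All units compared were segmented from TT-Seq, so a higher level there is in part fixed by how they were found. With no filter, 719 were tested, 564 were higher and 10 lower, with a median of 2.54. Enhancer RNAs outside such hosts had 993 of 1155 higher and 35 lower, with a median of 2.37; the difference between the sets was not tested. Antisense RNAs outside GENCODE had a median of 1.81.

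On the TMM scale of the fits most hosts were lower. Of 564 host units, 106 were higher and 309 lower in TT-Seq, with a median log2 fold change of -0.22. The TMM factors were 1.11 for both TT-Seq libraries and 0.873 and 0.875 for Total RNA-Frag-Seq, which lowers every such fold change. Scaled to counts in units alone, the median host level was 1.44 and 1.50 in TT-Seq against 1.40 and 1.46 in Total RNA-Frag-Seq. The direction of the hosts thus depends on the scaling. For 412 of the 429 tested pairs the enhancer RNA's log2 fold change was above that of its own host, by a median of 2.61. In the unit opposite ATF7IP, a cofactor of histone methylation, at chr12:14393963-14394543, the counts were 65 and 94 in TT-Seq and 0 and 0 in Total RNA-Frag-Seq, at least 22.3-fold higher on the TMM scale of the fits (against 3 counts over both libraries), with the host at a log2 fold change of 0.48. Opposite MEF2D, a MADS-box transcription factor, the unit at chr1:156492034-156492281 had 35 and 44 counts against 0 and 0, at least 11.1-fold higher. Opposite TBC1D22A the unit at chr22:46934408-46935849 had 35 and 34 counts against 0 and 0, at least 9.68-fold higher. Opposite KIF21B, a kinesin, chr1:201019691-201021128 had 58 and 75 against 1 and 0 (log2 fold change 5.58 ± 0.77, SE; edgeR adjusted p = 6.73e-06). Opposite CPED1 chr7:121036554-121039199 had 39 and 50 against 0 and 1 (5.00 ± 0.71; edgeR adjusted p = 8.90e-06).

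**Figure D3:**
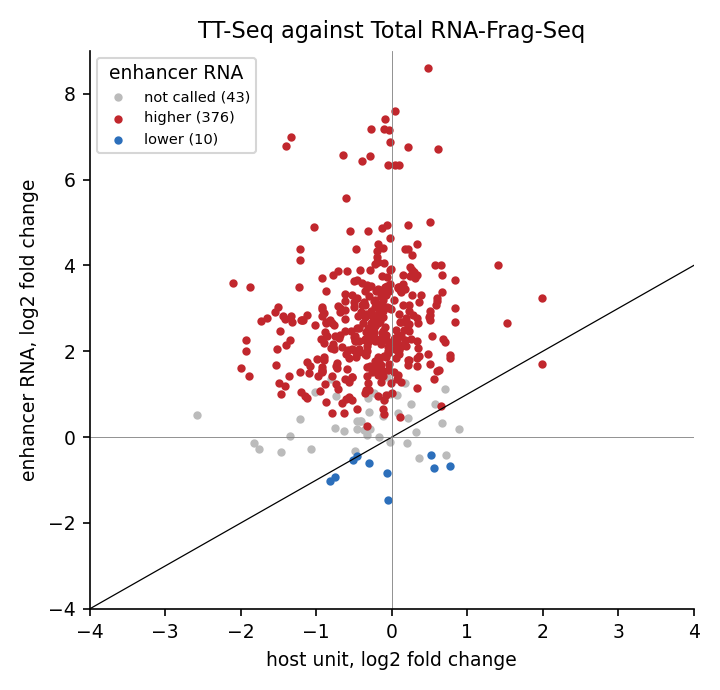
Log2 fold change of TT-Seq against Total RNA-Frag-Seq for 429 enhancer RNAs (vertical) against that of their host unit (horizontal); the diagonal marks equal change. Red points (376) are higher, blue (10) lower and grey (43) not called; 412 lie above the diagonal.

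The 10 lower units were 3862 to 96151 bases long. Opposite CDCP1, a cell-surface glycoprotein, the 96151-base unit at chr3:45076489-45172639 spans the whole host, and its level was 0.342 and 0.347 in TT-Seq against 0.790 and 0.709 in Total RNA-Frag-Seq (log2 fold change -1.47 ± 0.11, SE; edgeR adjusted p = 3.20e-08). It overlaps LOC124906233, a RefSeq gene on its own strand. The unit opposite PDSS2, an enzyme of coenzyme Q synthesis, is 28463 bases long and had 0.445 and 0.393 against 0.643 and 0.616 (-0.93 ± 0.10; edgeR adjusted p = 4.53e-07). The unit over the start of THEM4 (12031 bases) had 0.791 and 0.758 against 1.15 and 1.00 (-0.83 ± 0.10; edgeR adjusted p = 1.32e-06). Opposite GALNT7, a glycosyltransferase of mucin-type O-glycans, the 15809-base unit, which overlaps LOC124900812 on its own strand, had 0.301 and 0.246 against 0.342 and 0.365 (-0.71 ± 0.14; edgeR adjusted p = 2.45e-04). The shortest was the 3862-base unit opposite TKT, the pentose phosphate enzyme transketolase, at 0.179 and 0.165 against 0.305 and 0.242 (-1.02 ± 0.26; edgeR adjusted p = 1.81e-03). The next longest units, opposite the proteasome subunit PSMD1 (50786 bases) and over the start of the transcriptional corepressor BCOR (46540 bases), were also lower (-0.41 ± 0.09 and -0.60 ± 0.08). These calls are on the TMM scale. In counts scaled to library size alone, 7 of the 723 had both TT-Seq libraries below both Total RNA-Frag-Seq libraries, fewer than the 10 called.

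In unsheared RNA the median rise was smaller. Both 4sU-Seq libraries were above both Total RNA-Seq libraries in CPM for 580 of 723 (80.2%, against 60.6%) and below for 14 (1.94%, against 23.4%). Against Total RNA-Seq, 4sU-Seq was higher for 298 of the 429 and lower for 8 (edgeR, adjusted p under 0.05), against 40.2% and 28.2% of all units tested, at a median log2 fold change of 1.65, compared with 0.19 over all units. Without replicate 1 of Total RNA-Seq the higher calls fell to 188, and DESeq2 gave 186. The lower calls were 4 and 5 without replicate 1 and 2 of Total RNA-Seq, and 4 with no scaling beyond library size or with library size from all bins. Of the 376 units higher in TT-Seq, 286 were also higher in 4sU-Seq. TT-Seq and 4sU-Seq differed less: 78 were higher in TT-Seq and 17 lower, against 19.8% and 28.7% of all units, with a median of 0.37, and DESeq2 gave 24 and 9. The higher count was 33 without replicate 1 of 4sU-Seq and 40 and 41 without replicate 1 and 2 of TT-Seq, and the lower count was 10 without replicate 1 of TT-Seq. In CPM both TT-Seq libraries were above both 4sU-Seq libraries for 392 of 723 (54.2%, against 41.6% of all units) and below for 44 (6.09%, against 30.9%). Between the total RNA groups, 3 were higher in the sheared one and 5 lower, against 16.6% and 5.53%; without scaling beyond library size the latter count was 17. It was 1 without replicate 2 of Total RNA-Seq, 3 without replicate 1 of Total RNA-Frag-Seq, 9 without replicate 1 of Total RNA-Seq and 11 without either TT-Seq library, while the higher count was 1 without replicate 1 of Total RNA-Seq or replicate 2 of Total RNA-Frag-Seq. In CPM both sheared libraries were above both unsheared ones for 38 of 723 (5.26%, against 17.5%) and below for 172 (23.8%, against 41.8%). The test of whether the effect of purification differed between sheared and unsheared RNA called 29 of 429 larger with shearing and 6 smaller, against 8.77% and 25.8% of all units, with a median of 0.58. Without replicate 1 of Total RNA-Frag-Seq the first count was 16. It was 46 with no scaling beyond library size, 49 with library size from all bins and 44 with DESeq2 size factors. The second count was 2 when only bins wholly inside each unit were counted. These comparisons share libraries with one another.

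Hosts that belong to a list of haematopoietic regulators held 13 of the enhancer RNAs, in 10 hosts, and 9 passed the filter. Of these 8 were higher in TT-Seq than in sheared total RNA and 0 lower, against 376 of all 429 enhancer RNAs tested (87.6%) and 43.2% of all units. Their median log2 fold change was 2.19, against 2.34 for the 429; the list was assembled with results of these data known. SPI1, the myeloid and B-cell factor PU.1, held 2. The first, at chr11:47370129-47370863, had 33 and 30 counts in TT-Seq and 1 and 2 in Total RNA-Frag-Seq (log2 fold change 3.07 ± 0.70, SE; edgeR adjusted p = 7.94e-04). The second, at chr11:47377414-47380301 and over the host start, had 55 and 67 against 3 and 5 (2.65 ± 0.42; edgeR adjusted p = 2.65e-05).

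The unit over the start of SOX6, a factor of erythroid maturation, at chr11:16603548-16611823, had 348 and 404 counts in TT-Seq and 56 and 31 in Total RNA-Frag-Seq (1.87 ± 0.18; edgeR adjusted p = 8.46e-08). Opposite BCL2L1, the survival protein BCL-XL, chr20:31661447-31663150 had 83 and 70 against 7 and 7 (2.19 ± 0.38; edgeR adjusted p = 6.87e-05). The units opposite the transcription factors KLF3 (31 and 20 against 0 and 2), TCF7L2, a Wnt effector (24 and 35 against 2 and 0), and CUX1 (65 and 72 against 16 and 12) were also higher. FOXP1, a forkhead factor of lymphocytes, held the tested unit that was not called, with 27 and 18 against 5 and 6 (0.77 ± 0.48, edgeR adjusted p = 0.147). Of units in hosts of a chromatin regulator list, 8 of 9 tested were higher, with a median of 2.26. In hosts of a signalling and cytoskeleton list, 7 of 8 were higher, also with a median of 2.26. Both medians lie near that of all 429.

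RREB1, a zinc-finger transcription factor, held the most, with 7 units along 1 host. Their TT-Seq counts in replicate 1 and 2 were 49 and 52, 96 and 138, 7 and 9, 24 and 23, 13 and 23, 54 and 58, and 450 and 440, in order from the host start. The matching Total RNA-Frag-Seq counts were 3 and 2, 3 and 11, 0 and 0, 2 and 0, 1 and 0, 3 and 3, and 148 and 93. In each of the 7 both TT-Seq libraries were above both Total RNA-Frag-Seq libraries in CPM, as in 95.7% of the 723 and 66.7% of all units. The 5 units that passed the filter were higher, with log2 fold changes of 3.04, 2.79, 3.20, 2.94 and, for the longest, of 13284 bases, 0.64. The RREB1 host itself had -0.12 on the same TMM scale and was not called. Scaled to counts in units alone, its level was 4.69 and 4.91 in TT-Seq against 3.95 and 4.25 in Total RNA-Frag-Seq. The direction of this host thus depends on the scaling.

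Against the host strand in the same bins, the enhancer RNAs were the minority product. The median log2 ratio of own to host strand (1 added to each) lay at -1.67 and -1.77 for TT-Seq libraries, while 4sU-Seq gave -2.25 and -1.94. Total RNA gave -3.58 and -3.46 when sheared and -2.91 and -2.81 when unsheared. Own-strand counts exceeded host-strand counts for 168 and 162 of 723 in TT-Seq and for 63 and 61 in Total RNA-Frag-Seq. A test of the strand balance, which cancels library size, called 388 of 631 shifted toward the enhancer RNA in TT-Seq and 14 away from it (edgeR, adjusted p under 0.05), against 30.6% and 17.8% of all units tested, with a median of 2.36. In 4sU-Seq against Total RNA-Seq 161 of 631 shifted toward it and 13 away, against 20.6% and 12.2%. Without replicate 2 of Total RNA-Seq the first count was 85 and without replicate 1 it was 93, with 6 away. Antisense RNAs outside GENCODE shifted likewise in TT-Seq, with 1408 of 2072 toward their own strand and 27 away, at a median of 2.19. Other enhancer RNAs outside GENCODE had 252 of 813 toward their own strand and 60 away, at a median of 1.01.

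**Figure D4:**
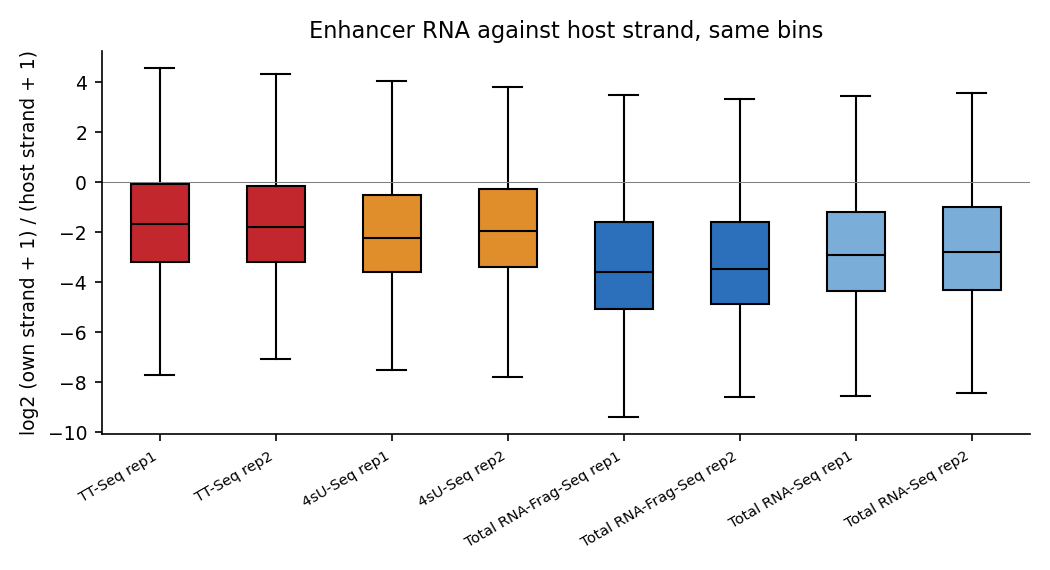
Log2 ratio of enhancer RNA strand to host strand counts in the same bins for each RNA library; boxes give the quartiles and the median, whiskers reach to the farthest value within 1.5 box heights. Medians are -1.67 and -1.77 in TT-Seq and -3.58 and -3.46 in Total RNA-Frag-Seq.

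The ratio ranged widely. In TT-Seq it was highest opposite EPCAM (6.91), in the unit with no host gene (6.66) and opposite PKMYT1 (6.32). It was lowest opposite VMP1, an autophagy protein (-7.14), over the start of ERV3-1-ZNF117 (-6.73) and opposite ANKRD17 (-5.69). The unit opposite VMP1 had 6.70 and 7.42 own-strand counts per 1000 host-strand counts in TT-Seq. In the rest of the hosts, outside the enhancer RNAs, 5.80 and 6.34 antisense counts were found per 1000 host-strand counts, pooled over hosts. The share of these that comes from reads assigned to the wrong strand was not tested. In both TT-Seq libraries 1 of the 723 lay below this pooled rate.

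Set against the antisense density of the rest of its own host, the enhancer RNA was denser in both TT-Seq libraries for 716 of 718 units with a background to compare, a count that the segmentation of TT-Seq itself selects for. In libraries not named as the source of the segmentation the count was 684 in 4sU-Seq, 356 in Total RNA-Frag-Seq and 357 in Total RNA-Seq. A unit with 0 counts in either library cannot meet this rule. Of all 723, 221 to 251 had 0 counts in a given total RNA library, so those counts are limited by depth. Starts within 5 kb of the host start and those farther in had median TT-Seq levels of 0.356 and 0.307, and the median log2 strand ratio was -0.45 and -1.96. Across 719 units the level had a Spearman rho of -0.07 with the level of the host and of 0.81 between the TT-Seq replicates, as a description of units that share libraries.

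Polymerase density at the starts was raised in the mean but not in most units. The mean N20 density rose from 0.596 and 0.617 at 1 kb before the start to 1.62 and 1.75 in the start bin. Over the 5 bins centred on the start, against flanks 2 to 5 kb away, the median log2 ratio was -0.09 and 0.11 in the N20 libraries, and 132 of 723 (18.3%) were at least 2-fold up in both. The shares were 22.8% of other enhancer RNAs outside GENCODE, 71.0% of antisense RNAs outside GENCODE, 77.3% of mRNA units and 64.8% of all units. Within the 723, the 609 starts over 5 kb into the host had median N20 ratios of -0.02 and 0.19, with 16.9% at least 2-fold up in both. The 114 starts within 5 kb of the host start had -0.78 and -0.46, with 25.4% at least 2-fold up. Median N20 density over the units was 0.541, against 0.624 over their hosts. The highest N20 densities were found opposite KLHL17 (11.5 and 9.37), over the start of TBX1, a developmental T-box factor (9.62 and 10.8), and opposite SEC14L1 (10.9 and 8.25). The ChIP counts carry no strand, so polymerase on the host and on the enhancer RNA cannot be told apart.

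**Figure D5:**
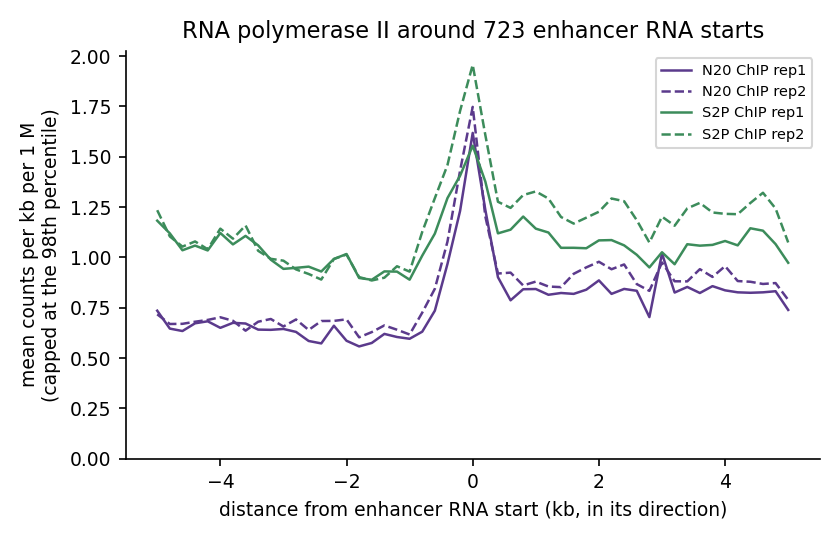
Mean ChIP density (counts per kb per 1 M, no strand) by distance from the start of 723 enhancer RNAs, with 1 line per ChIP library (solid replicate 1, dashed replicate 2). N20 peaks in the start bin at 1.62 and 1.75.

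Serine 2 phosphorylated polymerase relative to N20 did not separate the enhancer RNAs in 1 direction. Of 460 tested, 75 were higher in S2P ChIP and 32 lower (edgeR, adjusted p under 0.05), against 22.3% and 18.6% of all units, with a median log2 difference of 0.14. The 2 S2P libraries differed from each other far beyond counting error. Their chi-square per degree of freedom over units was 65.8, against 4.11 in N20 and 2.72 to 10.5 in the RNA groups. Without scaling beyond library size the split was 31 higher and 119 lower, so the balance of directions depends on the scaling. Without replicate 1 of N20 the counts were 47 and 13, without replicate 2 of N20 43 and 13, and without replicate 2 of S2P the lower count was 64. Hosts had 259 higher and 23 lower. The unit opposite BCL2L1 had S2P densities of 23.7 and 38.3 and N20 densities of 3.70 and 4.09 (3.04 ± 0.24, SE; edgeR adjusted p = 9.67e-07), and that opposite VMP1 had 19.5 and 14.9 against 2.53 and 2.13 (2.97 ± 0.21; edgeR adjusted p = 8.52e-07). The unit opposite SEC14L1 went the other way, with 2.75 and 5.00 against 10.9 and 8.25 (-1.26 ± 0.34; edgeR adjusted p = 8.78e-03).

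In the authors' deposited table of rates, for which the sources used here give no unit, the median decay rate was 0.426 for the enhancer RNAs and 0.0157 for their hosts. The authors' deposited table gave 0.525 for other enhancer RNAs outside GENCODE and 0.162 for antisense RNAs outside GENCODE. Of 651 pairs with both rates in the authors' deposited table, 599 had the higher decay rate in the enhancer RNA. These rates were derived by the authors from labelled and total RNA, so they are not independent of the comparisons above.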

How the data were processed

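RNA and ChIP libraries of K562 were taken as deposited: 12 libraries, 2 in each of 6 groups. The deposited values are whole counts in bins of 200 bases, which the authors split by strand for RNA but not for ChIP, per the file headers. The submitters' processing notes name the build hg38 (GRCh38) and the tools Bowtie2 2.1.0, SAMtools and STAR 2.3.0, without roles. The authors also deposited the units with their class. The handling of multiply mapped reads is not stated in the sources at hand.

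Counts of the bins whose midpoint lies in a unit were summed on its own strand. Units were filtered with filterByExpr, scaled by TMM and tested with edgeR 4.0.16 (glmQLFit, glmQLFTest) in R 4.3.3, with Benjamini-Hochberg adjustment over all units at 0.05; the 8 RNA libraries share 1 fit, and the ChIP libraries another. Strand balance was the interaction of strand and group. Scripts ran in Python 3.11.15. Alternatives included DESeq2 1.42.0 and limma 3.58.1. The fits were tested on simulated data. Host genes came from RefSeq (GRCh38.p14), and a gene was named where at least 50% of it or of the unit overlapped. Genes on the host's strand were preferred, and genes of unknown strand were also allowed. Units named in the text are the 6 highest TT-Seq levels, the 5 highest and 5 lowest fold changes at 0.5 CPM or more, the 3 highest and 3 lowest strand ratios, the 3 highest N20 densities, up to 8 in haematopoietic hosts and the 3 longest, none on chromosome 8; RREB1 was added as the host with most units, and promoter windows for their motifs. The units, lists and rules were chosen with earlier results of these data known. The design text calls the RNA libraries biological duplicates; for ChIP the spread may be technical.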

Additional observations from a re-analysis of the deposited data

Results flagged for a closer look

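For 9 named units the test of the difference itself found that the effect of purification differed between sheared and unsheared RNA (edgeR, adjusted p under 0.05). The log2 difference, sheared minus unsheared, was 0.88 for the unit on chromosome 12 with no host gene named, 0.78 opposite ARPC1A, 6.53 opposite ATF7IP and 5.65 opposite TBC1D22A. The latter pair have 0 counts in Total RNA-Frag-Seq, so these fitted values depend on the prior count. It was -1.37 opposite CDCP1, -0.78 opposite PDSS2, -0.92 over the start of THEM4, -0.40 opposite PSMD1 and -1.08 over the start of BCOR. Those 5 are among the long units.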

How the results depend on the processing

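Leaving out 1 library at a time, the units called higher in TT-Seq against sheared total RNA numbered 366 to 432 and those lower 8 to 10. The ranges were 188 to 324 higher and 4 to 10 lower for 4sU-Seq against Total RNA-Seq, 33 to 88 and 10 to 19 for TT-Seq against 4sU-Seq, and 1 to 3 and 1 to 11 for sheared against unsheared total RNA. They were 16 to 38 and 4 to 9 for the interaction, 270 to 395 and 10 to 14 for strand balance in TT-Seq, 85 to 162 and 6 to 14 for strand balance in 4sU-Seq, and 43 to 96 and 13 to 64 for S2P against N20. DESeq2's Wald test gave 186 higher in 4sU-Seq, 24 higher and 9 lower in TT-Seq against 4sU-Seq, and 21 lower in S2P. With no scaling beyond library size, 4 were lower in 4sU-Seq, 17 were lower in sheared total RNA, 46 had a larger effect with shearing, and S2P gave 31 higher and 119 lower. With library size from all bins the first 3 of these were 4, 16 and 49, and with DESeq2 size factors 16 were lower in sheared total RNA and 44 had a larger effect with shearing. Another run counted only the bins that lie wholly inside a unit. In it 6 were lower in TT-Seq against sheared total RNA, 0 higher in sheared total RNA and 2 smaller in the interaction. The same run gave 8 lower in strand balance in TT-Seq and 20 lower in S2P. Left-out libraries aside, for no other alternative run did a count move by more than 1.5 times, the ChIP library size from all bins, chosen after seeing the data, included. With no filter, 564 of 719 were higher in TT-Seq, within that bound. The cause of these shifts was not tested.

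Replicate numbers are shared by label only, and differences between replicates correlated between groups at -0.07 to 0.17 in RNA and at -0.08 in ChIP. With a replicate block, 376 were higher and 10 lower in TT-Seq against sheared total RNA, and 76 higher and 35 lower in S2P. Most of these units hold few counts in total RNA, and this limits the fold changes.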
